A study of Mus musculus with 6 samples.

Results

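The genes described here carry out iron uptake, storage and export in endothelial cells (ECs) of the mouse spinal cord. They are 10 genes, *Tfrc*, *Trf*, *Slc11a2*, *Fth1*, *Ftl1*, *Ncoa4*, *Slc40a1*, *Heph*, *Aco1* and *Ireb2*, picked by gene symbol from a count table of 56748 genes. Each symbol had 1 row, and all 10 members were among the 13107 genes with enough counts to be tested. RNA-Seq was performed on ECs sorted from spinal cords at P16, with 3 libraries from control mice and 3 libraries from *TDP-43* iΔEC mice. Every mouse in both groups carried the Tardbpflox allele, in which *loxP* sites flank exon 3 of *Tardbp*, the gene of the RNA-binding protein TDP-43, and was given tamoxifen (1 mg/mL) from P5 to P7. The *TDP-43* iΔEC mice (labelled KO) also carried Cdh5(PAC)-CreERT2, a tamoxifen-activated Cre recombinase driven by the promoter of the EC gene *Cdh5*. The control mice had no Cre, so effects of Cre with tamoxifen and effects of losing *Tardbp* cannot be told apart. The question addressed was whether *Tfrc* was lower in *TDP-43* iΔEC ECs, and whether the other genes then followed the pattern of iron-loaded cells.

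The transferrin receptor encoded by *Tfrc* binds iron-carrying transferrin on the cell surface and takes it into endosomes, and in brain and spinal cord capillaries this is a main route by which iron crosses from blood. Cells sense iron through the iron regulatory proteins, the products of *Aco1* and *Ireb2*, which bind a small hairpin called the iron responsive element (IRE) when iron is scarce. Bound to the 3′ UTR of *Tfrc* mRNA they protect it from decay, and bound to the 5′ UTR of the ferritin and ferroportin mRNAs they block translation. Iron loading therefore lowers *Tfrc* mRNA, while much of the response of ferritin is in translation, which mRNA counts do not measure.

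The hairpins are shown because they are the sequence feature through which these mRNAs are known to answer to iron. In the members, the UTRs of the coding transcripts of the basic annotation set were searched on the transcript strand. The pattern was a C, 5 bases of any kind and the loop CAGTGN (N is A, C or T). The loop was followed by 5 bases that pair with the 5 bases before it, with or without 1 extra base in the stem. A match is a description of the sequence and not a measured binding site. Each sequence below is 30 bases, 5′ to 3′, with T for U, and the capitals mark the 6 bases of the loop. The 4 matches in the 3′ UTR of *Tfrc* lie on the + strand of chromosome 16 (GRCm39), at chr16:32450037-32450066, chr16:32450416-32450445, chr16:32450481-32450510 and chr16:32450528-32450557.
Tfrc IRE 1: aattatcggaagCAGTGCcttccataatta
Tfrc IRE 2: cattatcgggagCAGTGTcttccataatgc
Tfrc IRE 3: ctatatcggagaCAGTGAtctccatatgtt
Tfrc IRE 4: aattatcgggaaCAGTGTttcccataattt
The 5′ UTRs of *Fth1* (chr19:9960096-9960125, + strand), *Ftl1* (chr7:45109202-45109231, - strand) and *Slc40a1* (chr1:45964624-45964653, - strand) held 1 match each.
Fth1: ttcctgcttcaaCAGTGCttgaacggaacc
Ftl1: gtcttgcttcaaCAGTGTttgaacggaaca
Slc40a1: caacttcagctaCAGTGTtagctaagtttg
A match with 1 extra base lay in the 3′ UTR of *Slc11a2* (chr15:100293033-100293062, - strand), in 9 of its 17 coding transcripts and not in the canonical one.
Slc11a2: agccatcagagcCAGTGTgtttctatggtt

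Such matches were rare among annotated genes, for which only the canonical coding transcript of each gene was searched. A match without an extra base was found in the 5′ UTR of 20 of 20118 genes (0.0994%) and in the 3′ UTR of 93 of 20565 genes (0.452%), or 0.749% of the 3471 genes whose 3′ UTR was within 25% of the length of that of *Tfrc*. With 1 extra base allowed, the shares were 0.239% for 5′ UTRs and 1.24% for 3′ UTRs. *Tfrc* was the only gene of the 20565 with 3 or more matches without an extra base in its 3′ UTR. No match was found in *Trf*, *Ncoa4*, *Heph*, *Aco1* or *Ireb2*. Among the other genes of a wider iron list described below, *Alas2* held a match in the 5′ UTR, and *Epas1* (5′ UTR) and *Rab11a* (3′ UTR) held one with an extra base.

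**Figure D1:**
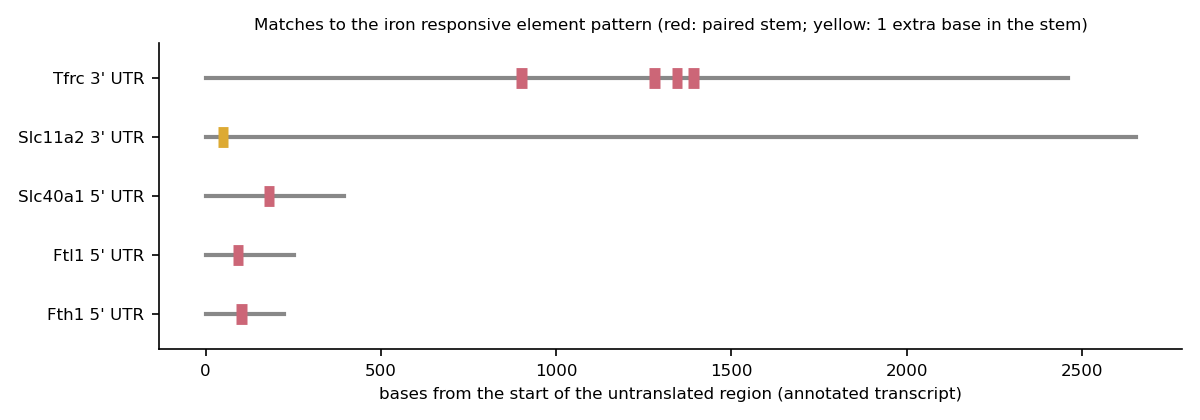
Positions of matches to the iron responsive element pattern along the UTRs of 5 members, in bases from the UTR start. The 4 blocks of *Tfrc* lie in the middle of a 3′ UTR of 2461 bases, and the single blocks of *Slc40a1*, *Ftl1* and *Fth1* lie in 5′ UTRs of 395, 253 and 224 bases.

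The values below are normalized counts, meaning the deposited counts divided by a size factor per library, and fold changes are from limma-voom with Benjamini-Hochberg adjustment over all 13107 tested genes and a threshold of 0.05. Library totals were 44041329 to 47270654 counts in control mice and 45010088, 28228980 and 25704871 counts in *TDP-43* iΔEC mice 1, 2 and 3. As a check of the labels, the *Tardbp* gene gave 1973, 2282 and 2069 normalized counts in the control libraries, against 982, 600 and 433 in those of *TDP-43* iΔEC mice. The groups did not overlap, and the log2 fold change was -1.62 (SE 0.41, limma adjusted p = 0.287). These counts cover the whole gene, including exons outside the deleted one and a stretch shared with *Masp2* on the opposite strand (34.51% of the exon bases). EC markers were abundant in every library, with the 10 marker genes summing to 14800 to 20700 CPM in control mice and 13900 to 16500 CPM in *TDP-43* iΔEC mice. In bulk libraries, fewer cells of a type and less RNA per cell cannot be told apart.

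*Tfrc* (chr16:32427556-32451612) was the only member that passed the threshold. It gave 110975, 86170 and 110707 normalized counts in control libraries 1, 2 and 3, against 44463, 48197 and 34257 in those of *TDP-43* iΔEC mice. The lowest control value was well above the highest *TDP-43* iΔEC value, and each group lay in a narrow band, with a coefficient of variation of 13.9% and 17.1%. The means were 102617 ± 14245 and 42306 ± 7216 (SD, n = 3). Expression in *TDP-43* iΔEC ECs was 0.404 times that of control ECs (95% confidence interval 0.312 to 0.524), a log2 fold change of -1.31 (SE 0.17, limma adjusted p = 0.0269). *Tfrc* ranked 13 by p-value among all tested genes, although 13.8% of them had a lower log2 fold change. The deposited counts of *Tfrc* were 58641 in *TDP-43* iΔEC library 1, whose total lay within the control range, and 96805 to 136420 in the controls. The share of counts taken by the ribosomal RNA gene *Rn18s-rs5* also moved with the group, from 14.8% to 18.5% in control libraries and from 8.04% to 13.6% in *TDP-43* iΔEC libraries, and its part in the result was not tested. The call was lost when any library other than control 2 was left out (adjusted p 0.0613 to 0.193, log2 fold change -1.39 to -1.18), and with edgeR's quasi-likelihood test (-1.32, adjusted p = 0.161).

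Only *Tfrc* of the 10 members passed the threshold, where 0.137% of all tested genes did, 0.107% as lower and 0.0305% as higher. With an unadjusted p under 0.05 there were 2 members, *Tfrc* and *Slc40a1*, where 9.27% of all tested genes had one. The groups did not overlap for 3 members, *Tfrc*, *Slc40a1* and *Heph*, and all 3 were lower in *TDP-43* iΔEC ECs, where 15.3% of tested genes did not overlap in either direction, 7.93% being lower and 7.4% higher. The fold change was below 0 for 7 members and above 0 for 3, beside 50.7% below 0 over all tested genes. The median log2 fold change of the 9 members other than *Tfrc* was -0.189, and that of all tested genes was -0.0155, with quartiles of -0.632 and 0.649. Exact permutation of 3 against 3 libraries cannot give a p below 0.1 for a single gene, so the calls rest on the fit across all genes.

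**Figure D2:**
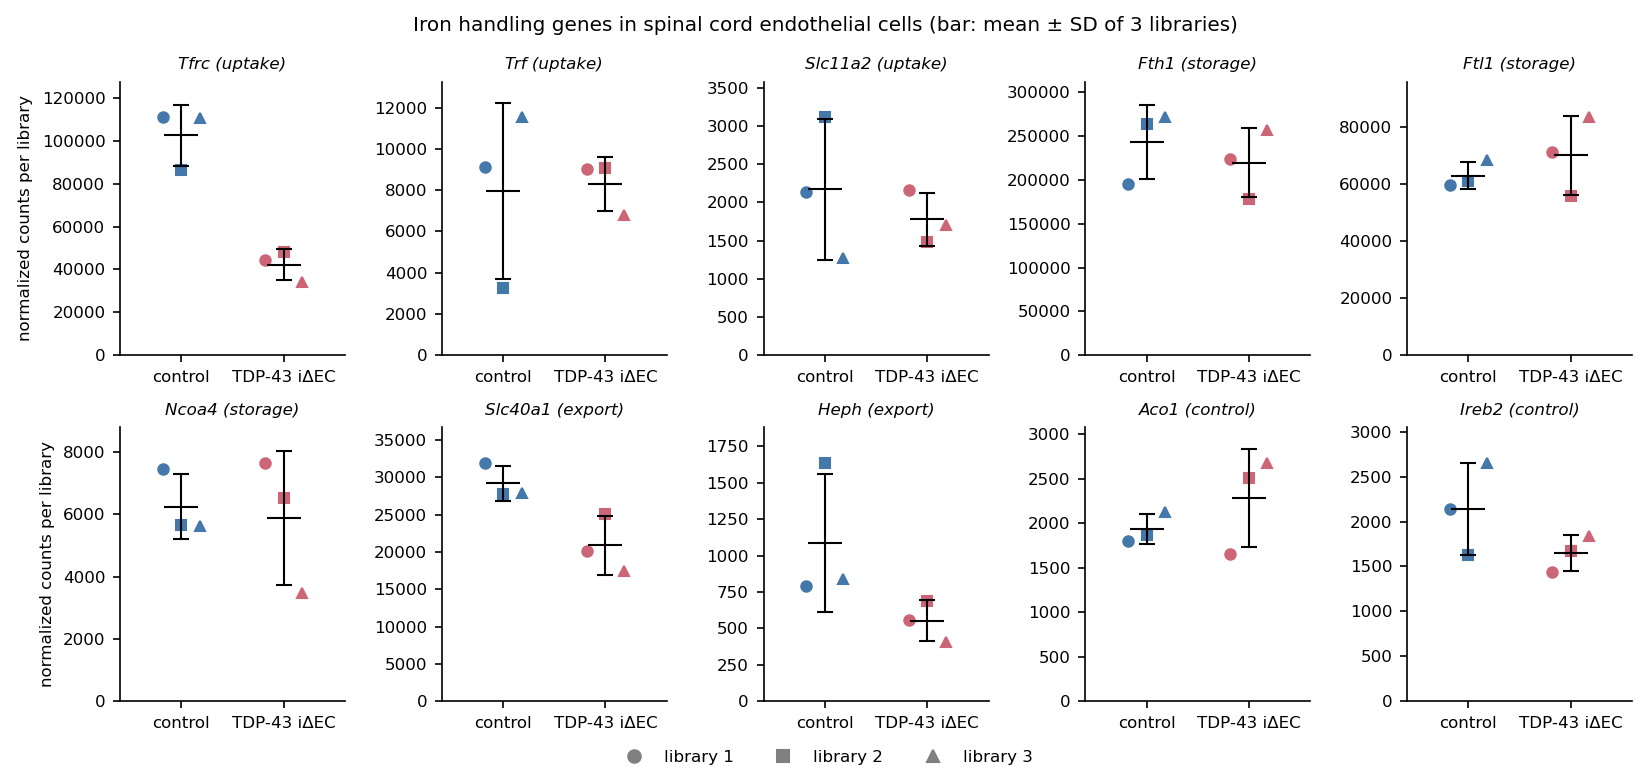
Normalized counts of the 10 members in each library, with 1 panel per gene, a linear axis from 0, points for libraries and bars for the mean ± SD (n = 3). The *Tfrc* points separate, from 34257 to 48197 against 86170 to 110975, while the points of 7 of the 10 genes overlap.

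The other uptake genes gave values that overlapped between groups. *Trf* (chr9:103081200-103107814) encodes transferrin, the protein in plasma that the receptor binds. It had 9140, 3247 and 11535 normalized counts in the control libraries, against 9040, 9056 and 6806 in those of *TDP-43* iΔEC mice. Control library 2 lay far below the other controls, and the log2 fold change was 0.21 (SE 0.43, limma adjusted p = 0.897) with it and -0.36 (SE 0.22, adjusted p = 0.628) without it. Oligodendrocytes are a known source of *Trf* in the central nervous system, and the 10 oligodendrocyte marker genes summed to 439, 615 and 794 CPM in control mice and 710, 93.6 and 44.1 CPM in *TDP-43* iΔEC mice. In the 2 libraries where these markers were lowest, *Trf* stood at 9056 and 6806 normalized counts. The part of these cells in *Trf* was not tested.

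*Slc11a2* (chr15:100285776-100322953), which encodes DMT1, the transporter that carries iron out of the endosome, had 2131, 3113 and 1267 normalized counts in the control libraries, against 2158, 1481 and 1699 in those of *TDP-43* iΔEC mice. The 3 *TDP-43* iΔEC values all lay inside the control range. The log2 fold change was -0.20 (SE 0.39, limma adjusted p = 0.887), with an interval from -1.07 to 0.67 that leaves a wide range of sizes, and it was 0.07 without control library 2. The transcripts with and without the hairpin are summed in these counts.

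Ferritin, the shell that stores iron, had the highest mRNA level of the group per transcript length, and neither of its chains passed the test. *Fth1* (chr19:9957911-9962462), the heavy chain, which oxidizes iron as it enters the shell, had 195191, 263168 and 271340 normalized counts in the control libraries, against 223925, 178437 and 256454 in those of *TDP-43* iΔEC mice. *Ftl1* (chr7:45107367-45109308), the light chain, had 59676, 61074 and 68478 in the control libraries, against 71277, 55789 and 83541 in those of *TDP-43* iΔEC mice. For both chains the lowest and the highest *TDP-43* iΔEC values lay on either side of at least 1 control value. *Fth1* was 0.877 times the control level (95% confidence interval 0.687 to 1.12, limma adjusted p = 0.700) and *Ftl1* was 1.07 times (0.844 to 1.35, adjusted p = 0.856). On the log2 scale these intervals were the narrowest of the 10 members. *Fth1* shares 36.38% of its exon bases with *Gm36913* on the opposite strand, which had 0 counts in every library. *Ftl1* overlaps other annotated genes over 47.88% of its exon bases, of which *Gm10252* on the opposite strand had 9 to 24 deposited counts per library. *Ftl1* also has 8 near-identical copies in the annotation, which held 2.12% to 2.57% of the summed counts of the gene and its copies.

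*Ncoa4* (chr14:31881822-31902234) encodes the receptor that delivers ferritin to lysosomes so that its iron is released. It had 7444, 5665 and 5637 normalized counts in the control libraries, against 7642, 6521 and 3481 in those of *TDP-43* iΔEC mice. The *TDP-43* iΔEC group held both the highest and the lowest value, and the log2 fold change was -0.12 (SE 0.29, limma adjusted p = 0.916). *Ncoa4* shares 2.56% of its exon bases with *Timm23* on the opposite strand, which had 2378 to 7317 deposited counts per library.

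The export genes were the remaining members whose groups did not overlap. *Slc40a1* (chr1:45947211-45965683) encodes ferroportin, the iron exporter. It had 31926, 27727 and 27975 normalized counts in the control libraries, against 20082, 25151 and 17463 in those of *TDP-43* iΔEC mice, with means of 29210 ± 2356 and 20899 ± 3908 (SD, n = 3). All 3 *TDP-43* iΔEC values were below the lowest control, although *TDP-43* iΔEC library 2 came close to it. The log2 fold change was -0.53 (SE 0.16, 95% confidence interval -0.89 to -0.17), and *Slc40a1* did not pass the threshold (limma adjusted p = 0.360). *Heph* (chrX:95498965-95621010) encodes hephaestin, the oxidase that works with ferroportin. It had the lowest level of the members per transcript length, with 789, 1635 and 839 normalized counts in the control libraries, against 559, 688 and 407 in those of *TDP-43* iΔEC mice. Control library 2 was about as far above the other controls as they were from 0, and the log2 fold change was -0.92 (SE 0.51, limma adjusted p = 0.590) with it and -0.63 without it.

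The genes of the iron regulatory proteins gave overlapping values. *Aco1* (chr4:40142998-40199010) encodes iron regulatory protein 1, which is an aconitase when it holds an iron-sulfur cluster. Its 1806, 1873 and 2133 normalized counts in control mice lay between the lowest (1651) and the next (2516) of the *TDP-43* iΔEC mice, whose highest was 2678, and the log2 fold change was 0.11 (SE 0.30, limma adjusted p = 0.928). *Ireb2* (chr9:54770970-54820011) encodes iron regulatory protein 2, which is degraded when iron is plentiful. It had 2142, 1630 and 2650 normalized counts in the control libraries, against 1443, 1668 and 1838 in those of *TDP-43* iΔEC mice, with a log2 fold change of -0.43 (SE 0.32, limma adjusted p = 0.672). *TDP-43* iΔEC libraries 2 and 3 lay inside the control range of *Ireb2*, and library 1 lay below it.

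Set against the pattern of iron loading, in which *Tfrc* and *Slc11a2* mRNA are lower and *Fth1*, *Ftl1*, *Slc40a1*, *Hmox1* and *Bmp6* mRNA are higher, only *Tfrc* passed the test. *Slc40a1* lay in the opposite direction (-0.53), *Fth1* at -0.19 and *Ftl1* at 0.09 on the log2 fold change scale. Scaled to 5 EC genes these values were -0.29, 0.057 and 0.33, and by library size only they were -0.35, -0.0007 and 0.29, none past the threshold. *Hmox1*, the heme oxygenase that frees iron from heme, had 1600, 2420 and 2287 normalized counts in the control libraries, against 3846, 2720 and 2737 in those of *TDP-43* iΔEC mice. Its groups did not overlap, and the log2 fold change of 0.57 (SE 0.29, limma adjusted p = 0.570) lay in the direction of the pattern without passing the test, and it was 0.36 without *TDP-43* iΔEC library 1. *Bmp6*, an iron-induced ligand best known from liver ECs, had 0 counts in 5 libraries and 165 normalized counts in *TDP-43* iΔEC library 3, and was not tested.

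**Figure D3:**
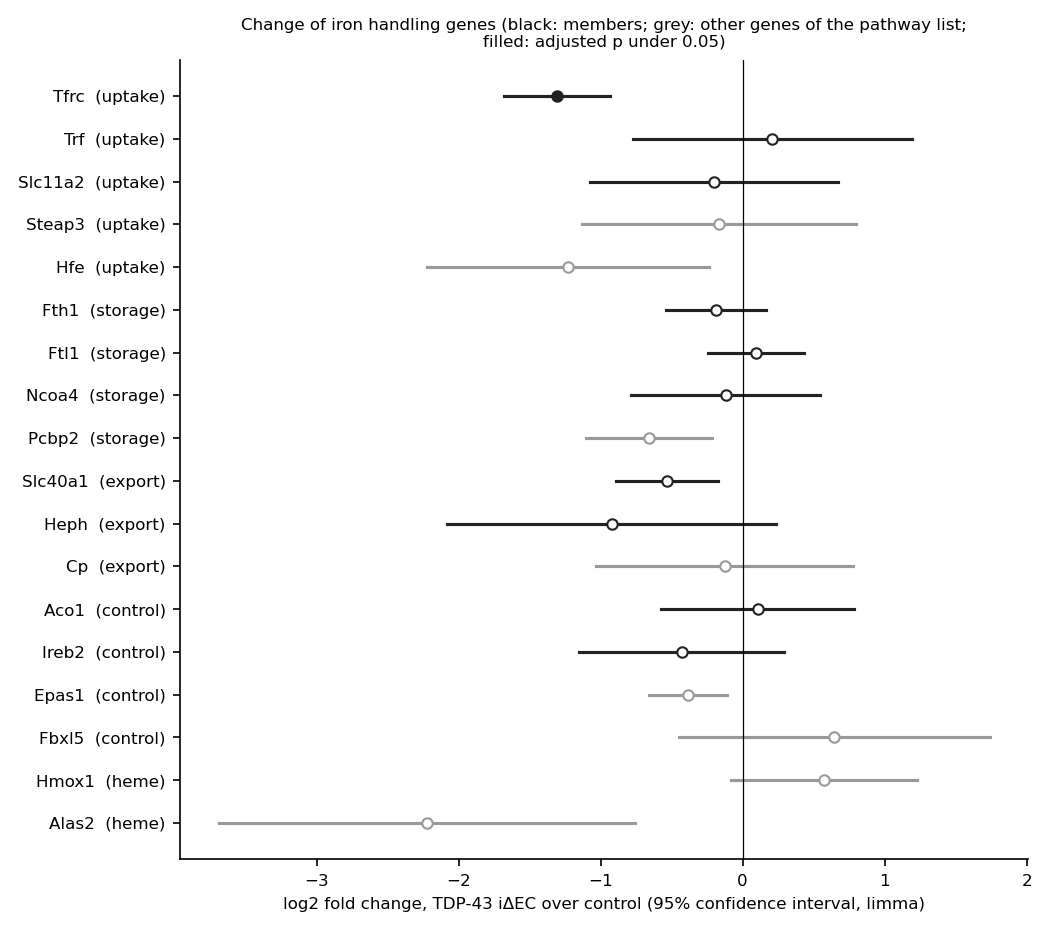
Log2 fold changes of *TDP-43* iΔEC over control with 95% confidence intervals (limma), for the 10 members (black) and other tested genes of the iron list (grey), ordered by role, with a filled point for an adjusted p under 0.05. Only the point of *Tfrc*, at -1.31, is filled. *Slc40a1*, *Hfe*, *Pcbp2*, *Epas1* and *Alas2* have intervals below 0 with open points, and the low-count gene *Zc3h12a* is not drawn.

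Ratios of 2 genes within a library do not depend on scaling between libraries. The ratio of *Tfrc* counts to ferritin counts (*Fth1* plus *Ftl1*) was 0.435, 0.266 and 0.326 in control libraries and 0.151, 0.206 and 0.101 in *TDP-43* iΔEC libraries. Every *TDP-43* iΔEC ratio was below every control ratio, and their geometric mean was 0.436 times that of the controls. *Tfrc* to *Slc40a1*, the uptake receptor against the exporter, was 3.48, 3.11 and 3.96 in control libraries and 2.21, 1.92 and 1.96 in *TDP-43* iΔEC libraries. *Tfrc* was thus lower relative to ferroportin too, with a log2 difference of -0.79. *Fth1* to *Ftl1* was 3.27, 4.31 and 3.96 in control libraries and 3.14, 3.2 and 3.07 in *TDP-43* iΔEC libraries, which lay close together and just below the lowest control. *Tfrc* to *Trf* was 12.1, 26.5 and 9.6 in control libraries and 4.92, 5.32 and 5.03 in *TDP-43* iΔEC libraries, and the high ratio of control library 2 goes with its low *Trf*.

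**Figure D4:**
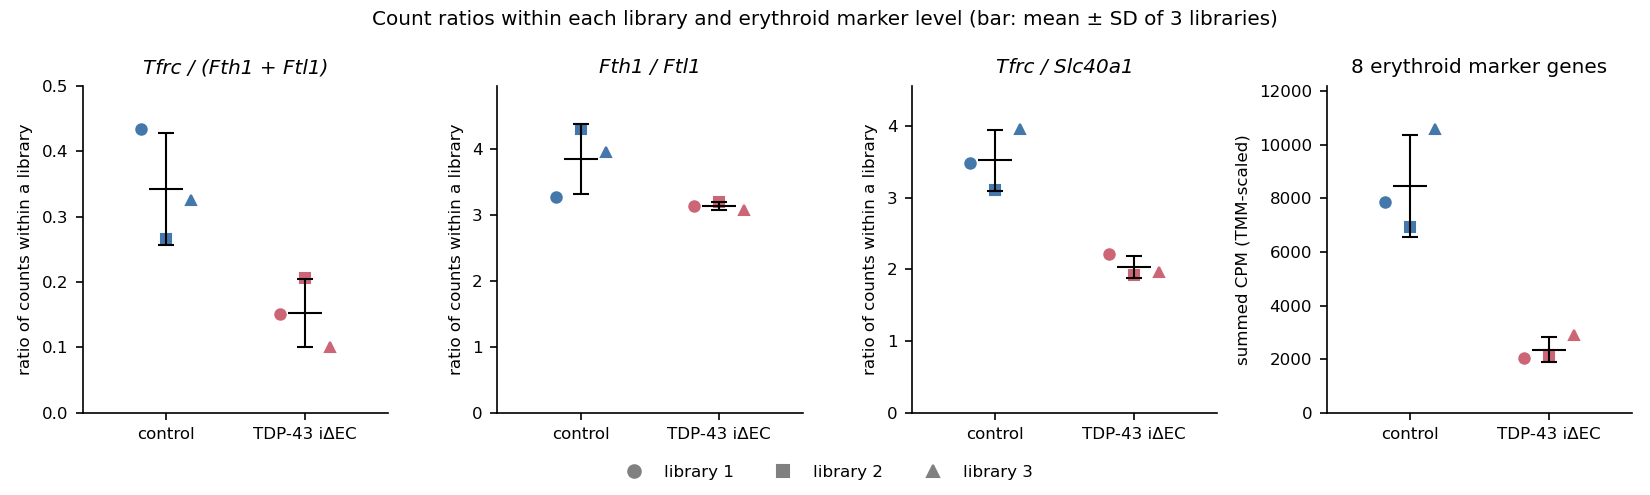
Count ratios within each library for 3 pairs of genes, and the summed TMM-scaled CPM of 8 erythroid marker genes, as points for libraries with the mean ± SD (n = 3) on axes from 0. The groups separate in all 4 panels, by the least for *Fth1* to *Ftl1* (3.2 against 3.27).

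Markers of red blood cells moved with *Tfrc*. Immature red cells carry much transferrin receptor, and the study's antibody list holds one to an erythroid surface antigen. The erythroid marker genes, of which 8 of 9 were in the table, summed to 7860, 6930 and 10600 CPM in control libraries and 2030, 2160 and 2890 CPM in *TDP-43* iΔEC libraries. The 6 that were tested all had a log2 fold change below 0, and 4 of them, the hemoglobin genes, passed the threshold, among them *Hba-a1* (-1.70), *Hba-a2* (-1.77) and *Hbb-bs* (-2.09) as log2 fold changes. The hemoglobin genes form near-identical pairs, between which the counting can split reads. *Alas2*, the erythroid enzyme of heme synthesis, had 3443, 1290 and 2329 normalized counts in the control libraries, against 393, 748 and 423 in those of *TDP-43* iΔEC mice (log2 fold change -2.22, SE 0.65, limma adjusted p = 0.360). Of the defining markers of the red cell membrane, *Epb42* was at 0 in all libraries and *Slc4a1* had at most 32 deposited counts in a library. In the control group, library 2 was the lowest in erythroid marker sum, *Alas2* and *Tfrc*. In the *TDP-43* iΔEC group, library 3 had the highest erythroid marker sum and the lowest *Tfrc*, while library 2 was the highest in both *Alas2* and *Tfrc*. The part of red cell RNA in the difference in *Tfrc* was not tested.

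Markers of ECs and of other cells varied too. Of the 10 EC markers, 9 had a log2 fold change below 0, with a median of -0.186, and 0 passed the threshold. At an unadjusted p under 0.05, 3 of them were lower, where 5% of all tested genes were. The most abundant were *Cldn5* (-0.22), *Slc2a1* (-0.04) and *Flt1* (-0.69, SE 0.11, limma adjusted p = 0.0635). Scaled to 5 EC marker genes instead of all genes, which shifts the median of all tested genes to 0.226, the log2 fold change of *Tfrc* was -1.07 (adjusted p = 0.170). Summed astrocyte markers were 238 to 260 CPM in control libraries and 128 to 177 CPM in *TDP-43* iΔEC libraries. *Gja1* alone gave 103 to 242 CPM over the libraries. *Gfap* (at most 23.3 CPM) overlapped between groups, and *Slc1a2* (at most 11 CPM) did not. Of the 4 tested astrocyte markers, 3 had a log2 fold change below 0 and 1 above. Summed neuron markers were low, at 5.13 to 12 CPM and 1.93 to 3.21 CPM. Of the 3 tested, 1 was lower and 1 higher at an unadjusted limma p under 0.05, and *Map2* had counts in control library 2 only. Mural cell markers (681 to 1260 against 528 to 1270 CPM), fibroblast markers (37.4 to 44.2 against 12.6 to 39.8 CPM) and microglia and macrophage markers (0 to 5.38 against 3.27 to 8.56 CPM, with *Adgre1* at 0 throughout) overlapped between groups. The part of these cells in the values of the members was not tested.

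Levels can be compared between genes per transcript length. On the scale of TMM-scaled CPM per kb of the canonical transcript, the control means ran from *Fth1* (7274 ± 1235) through *Ftl1* (1810 ± 161), *Tfrc* (584 ± 92.1), *Slc40a1* (235 ± 21.3), *Trf* (86.9 ± 47.5), *Ncoa4* (38.7 ± 6.73), *Slc11a2* (19.8 ± 8.04), *Aco1* (11.7 ± 1.2) and *Ireb2* (10.2 ± 2.61) to *Heph* (5.02 ± 2.08, SD, n = 3). The control ranges of neighbours in this order overlapped for *Trf* and *Ncoa4*, for *Slc11a2* and *Aco1*, and for *Aco1* and *Ireb2*, so these pairs have no settled order. The order of the means was the same in *TDP-43* iΔEC ECs, where *Tfrc* stood at 234 (190 to 265 over the libraries) and *Slc40a1* at 163 (137 to 196) CPM per kb. By its mean *Tfrc* thus stayed in rank 3 and came nearer to *Slc40a1*. The ranges of this pair overlapped in *TDP-43* iΔEC ECs, although *Tfrc* was above *Slc40a1* within each library. *Fth1* alone took 0.53% to 0.707% of all counts of a library.

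**Figure D5:**
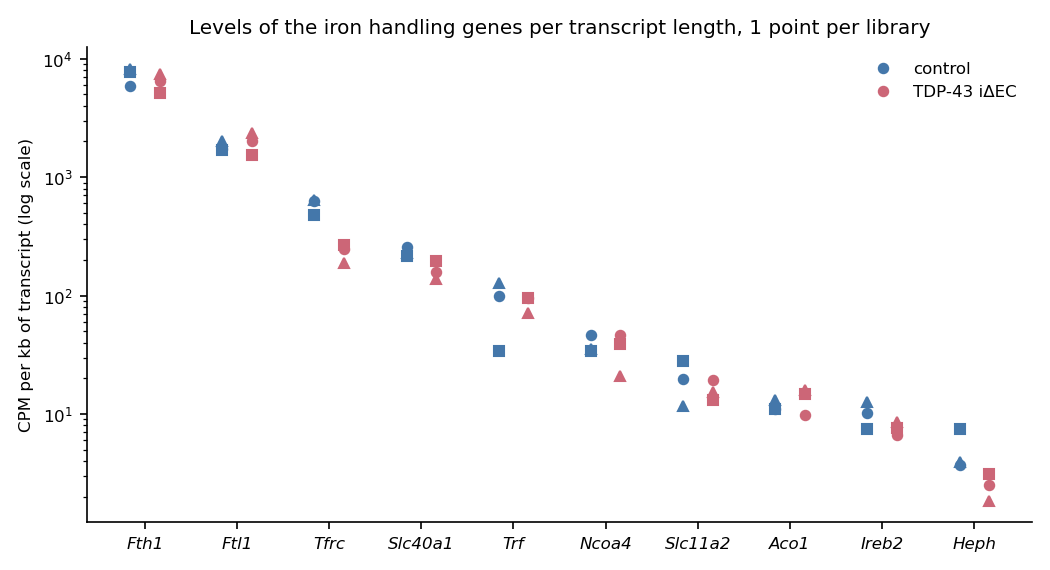
Level of each member as TMM-scaled CPM per kb of transcript on a log axis, with 1 point per library in control (blue) and *TDP-43* iΔEC (red) ECs. Levels run from 7274 for *Fth1* to 5.02 for *Heph* as control means, and the *Tfrc* points of the groups separate on this axis.

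The wider iron list held 76 genes in 8 roles, of which 60 were tested. It gave 1 call, *Tfrc*. With an unadjusted p under 0.05 there were 6 genes, all lower, where 5% of all tested genes were lower at this level and 4.26% higher. Without the members, 50 genes were tested, 24 of them below 0 and 26 above, with a median log2 fold change of 0.018. The 4 genes of these with an unadjusted p under 0.05 were *Alas2*, *Pcbp2*, *Epas1* and *Hfe*. *Pcbp2*, a chaperone that hands iron to ferritin, had 8883, 12595 and 10692 normalized counts in the control libraries, against 7286, 6163 and 7208 in those of *TDP-43* iΔEC mice (log2 fold change -0.66, SE 0.19, limma adjusted p = 0.360). *Hfe*, which binds the transferrin receptor, had 1675, 2094 and 1142 in the control libraries, against 509, 947 and 843 in those of *TDP-43* iΔEC mice (-1.23, SE 0.44, limma adjusted p = 0.471). *Epas1*, the hypoxia-inducible factor HIF-2α, had 45374, 46583 and 38347 in the control libraries, against 35553, 33160 and 32558 in those of *TDP-43* iΔEC mice (-0.39, SE 0.12, limma adjusted p = 0.391). In these 4 genes every *TDP-43* iΔEC value was below every control value, and none passed the adjusted threshold.

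In the uptake role 6 of 8 tested genes, *Tfrc* among them, had a log2 fold change below 0, and *Steap3*, the endosomal iron reductase, was at -0.17 (SE 0.43). In the storage role 3 of 5 tested genes were below 0, and in the export role all 3, with *Cp*, the ceruloplasmin oxidase, at -0.13 (SE 0.40). Among the 9 genes for control of *Tfrc* and ferritin mRNA, 3 were below 0 and 6 above. *Fbxl5*, the iron-sensing ligase subunit that targets iron regulatory protein 2, had 1705, 679 and 1901 normalized counts in the control libraries, against 2574, 1272 and 2722 in those of *TDP-43* iΔEC mice, with a log2 fold change of 0.64 (SE 0.48, limma adjusted p = 0.673), or 0.16 without control library 2. *Zc3h12a*, the RNase regnase-1 that cuts *Tfrc* mRNA among others, reached at most 66.6 normalized counts in a library, too few to show a change (-1.82, SE 2.32).

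The genes whose profile over the 6 libraries was most like that of *Tfrc*, by Pearson's r of TMM-scaled log2 CPM, were *Csrp2* (r = 0.989), *Rasgrp3* (0.989), the pseudogene *Rps27a-ps3* (0.985), *Flt1* (0.983) and *Hbb-bt* (0.979). They include a VEGF receptor of ECs (*Flt1*, 67997 ± 3989 against 43088 ± 2209 normalized counts) and a hemoglobin gene (*Hbb-bt*, 22394 ± 4035 against 5661 ± 636, SD, n = 3). Among the members, *Slc40a1* was the most alike (r = 0.935), where 1.41% of tested genes had an r over 0.9. It was followed by *Heph* (0.717), *Ireb2* (0.684) and *Ncoa4* (0.451). *Fth1* (0.215), *Trf* (0.0805) and *Slc11a2* (0.138) had little likeness, and *Ftl1* (-0.373) and *Aco1* (-0.375) were negative. These values describe 6 libraries that differ by genotype and share their scaling.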

How the data were processed

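ECs were sorted by the authors from spinal cords of P16 mice, and SMARTseq2 libraries, which copy polyadenylated RNA and amplify it by PCR without molecular identifiers, were sequenced. Per the labels and the study's methods, the authors aligned reads to GRCm39 with STAR 2.7.8a and deposited estimated counts per gene (RSEM 1.3.0, GENCODE M30), unscaled and in whole numbers. Groups came from the sample titles, 0 columns lacked a sample, and no 2 libraries were repeats of each other. The labels number the libraries, taken here as separate mice, and p-values measure the spread between them. PCR copies were counted as reads.

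*TDP-43* iΔEC and control libraries were compared by limma 3.58.1 under R 4.3.3, using voom weights, a linear model without covariates and 2-sided empirical Bayes tests. TMM scaling and filterByExpr came from edgeR 4.0.16. P values were adjusted by Benjamini-Hochberg over all tested genes. Normalized counts used size factors of DESeq2 1.42.0. The fit was tested on simulated data. Positions, UTRs, overlaps and shared sequence (at least 51 bp at 97% identity) came from GRCm39 and GENCODE M39, which matched 98.7% of identifiers. Confidence intervals are at 95%.

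The members, the iron list and the marker lists were chosen with earlier results of these data known. Named are the members, *Tardbp*, fixed genes of the iron list and up to 12 of its genes with an unadjusted p under 0.05, the 5 genes most like *Tfrc*, and the most abundant markers. Further markers (*Epb42*, *Slc4a1*, *Adgre1*), *Rab11a* and *Rn18s-rs5* were named after their values were seen. A few of the genes named by these rules are not reported here. Alternatives were the Wald test of DESeq2, the quasi-likelihood test of edgeR, quality weights per library, other scalings and filters, the replicate number as a block, summed copies, and leaving out each library.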

Additional observations from a re-analysis of the deposited data

How the results depend on the processing

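*Tfrc* kept a negative log2 fold change in all 16 alternatives (-1.45 to -1.07, adjusted p 2.388e-09 to 0.193) and passed the threshold in 7. It did not with edgeR (-1.32), library size only (-1.12), scaling to 5 EC genes (-1.07), no filter (-1.30), or without any single library other than control 2 (leaving out each library, -1.45 to -1.18). The genes called were 18, against 0 with edgeR (848 at an unadjusted p under 0.05, lowest adjusted p 0.0504), 250 with DESeq2, 10 with library size only, 1 with EC scaling, 76 without a filter, 39 with at least 10 counts in every library and 0 to 13 with a library left out. Members called were then 0 with edgeR, library size only, EC scaling and no filter, and 0 to 1 with a library left out, and likewise for the iron list (0 and 0 to 1), which had 2 calls with DESeq2 (*Tfrc* and *Alas2*, the latter at an adjusted p of 0.00492). The cause was not tested. Library size only and EC scaling moved the median of all genes to 0.176 and 0.226, and leaving out control 2 moved it to -0.17.

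Deviations of same-numbered libraries from their group means had correlations of -0.06, -0.11 and -0.02. Deviations from means of 3 libraries are tied to each other, so these values cannot show whether the numbers pair the mice. The fit with the replicate number as a block gave 22 genes called and *Tfrc* at -1.31 (adjusted p = 0.0258), and it changed no other call among the members and the iron list. The *Tfrc* to ferritin ratio was -0.93 to -1.44 (log2) with a library left out and -1.20 with copies summed. No copies of *Fth1* met the limit, so only *Ftl1* and, added after seeing the data, *Ncoa4* were summed.

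Log2 fold changes that turned sign had an adjusted p of at least 0.628 where they did. With EC scaling they were *Slc11a2* 0.0157, *Fth1* 0.057, *Ncoa4* 0.10, *Cp* 0.0947 and *Steap3* 0.0942. With library size only they were *Ncoa4* 0.0606, *Cp* 0.0754 and *Steap3* 0.0181. With DESeq2 they were *Cp* 0.0144 and *Steap3* 0.0292, and with quality weights *Trf* -0.23 and *Steap3* 0.036. With a library left out, the sign turned for *Trf* (-0.36 to 0.58, below 0 without control 2), *Slc11a2* (-0.54 to 0.0729, above 0 without control 2), *Ftl1* (-0.0022 to 0.23, without KO 3), *Ncoa4* (-0.40 to 0.17, without control 1 or KO 3), *Aco1* (-0.0108 to 0.38, without KO 2 or KO 3), *Cp* (-0.38 to 0.20, without control 2 or KO 2) and *Steap3* (-0.59 to 0.17, without control 1 or KO 1). The spread between 3 libraries per group limits these comparisons.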

Other observations

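Receptor trafficking and mitochondrial iron genes of the list gave no call. Of the 7 trafficking genes, which return the transferrin receptor to the surface or turn it over, 4 had a log2 fold change below 0 and 3 above, with a median of -0.169 and 0 genes at an unadjusted p under 0.05 by limma. Of the 10 genes of mitochondrial iron and iron-sulfur clusters, 3 were below 0 and 7 above, with a median of 0.153. Of the 15 tested heme genes, 8 were below 0 and 7 above.

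Of the 60 tested genes of the iron list, 10 had groups that did not overlap in the lower direction, beside 7.93% of all tested genes. The 3 in the higher direction, beside 7.4% of all tested genes, were picked out after their values were seen. They were *Hmox1*, *Alas1*, the enzyme of heme synthesis in non-erythroid cells (10770, 12770 and 10992 normalized counts in the control libraries, against 12982, 14168 and 16752 in those of *TDP-43* iΔEC mice, log2 fold change 0.29, SE 0.16, limma adjusted p = 0.602), and *Myc* (499, 0 and 443 against 672, 906 and 1300, limma adjusted p = 0.564). *Alas1* was higher while the erythroid enzyme *Alas2* was lower, and neither passed the threshold.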
